A study of Mus musculus with 12 samples.

Results

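Osteoclasts are the multinucleated, bone-resorbing cells that arise by fusion of macrophage precursors. In those precursors the ligand RANKL binds the receptor RANK, and together with co-receptors that signal through ITAM adaptors it switches on the transcription factor NFATc1. NFATc1, acting with PU.1, MITF and AP-1, in turn drives genes for attachment to bone, for acid secretion and for matrix digestion, and several of these genes are also active in ordinary macrophages. The 10 genes described here span that sequence. They are the receptors Tnfrsf11a (RANK) and Oscar, the regulator Nfatc1, the attachment integrin Itgb3, the calcitonin receptor Calcr, the acid-secretion genes Atp6v0d2 and Car2, and the enzymes Acp5, Ctsk and Mmp9. Membership was given by gene name, with earlier results of these data known. Each gene was read from its brightest probe set, judged by the mean of the 12 arrays. All 10 had a probe set that the array annotation assigns to a single gene, among 17097 such genes on the array.

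The 12 Affymetrix mouse arrays fall into 4 groups of 3, all made from bone marrow-derived macrophages of C57BL/6 mice kept with spheres of the mouse neuroblastoma line TT9423. In-sphere macrophages at 24 h were recovered on CD11b magnetic columns after the spheres were digested, outside macrophages at 24 h came from the same cultures but had not entered a sphere, and the same pair of groups was taken at 48 h. The spheres come from a single tumour line, each array pools macrophages of many wells, each replicate number is an independent experiment, and no genetic change or drug is given for any group. The protocol text, the same for every sample, describes 24 h of co-culture, so 48 h rests on the titles and the time label, and whether outside cells were digested or column-selected is not stated.

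Values are log2 expression (RMA), so a difference of 1 is a doubling of signal, and levels of different genes cannot be set against each other. A gene was tested if it exceeded 2.77, the 40th percentile of all values, on at least 3 arrays, which 12488 genes did. A change was called where limma's p, adjusted by Benjamini-Hochberg over all tested genes, was under 0.05, and errors of differences are standard errors of that fit with n = 3 arrays per group. Csf1r, Cd68, Adgre1 and Itgam, markers of the labelled cell type, were far above the filter level on every array. Across the 12 arrays the receptor Csf1r ran from 9.01 to 9.97 and the lysosomal protein Cd68 from 11.32 to 12.37. Adgre1 ran from 10.5 to 11.39 and Itgam, which encodes the CD11b used for selection, from 8.06 to 9.11. Of these, Adgre1 was called lower in spheres at 24 h (-0.43 ± 0.13, limma adjusted p = 0.0221) and Cd68 at 48 h (-0.75 ± 0.13, adjusted p = 6.91e-04). Csf1r and Itgam were not called at either time. Some other macrophage identity genes also differed between the compartments, and these and markers of other cells are given below. In-sphere replicate 3 at 48 h stood apart, with a mean over all probe sets of 4.06, against 4.22 for both other arrays of its group, and the lowest array weight, 0.235.

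Promoter windows were at hand for 5 of the 10 genes. Those of Acp5 and Ctsk are shown because both enzymes are textbook targets of the NFATc1 programme, and that of Tnfrsf11a because its signal ran the other way at 24 h. Each is the 250 bases before an annotated transcription start, written 5′ to 3′ along the gene's strand, from RefSeq on GRCm38.p6. Capitals mark matches on either strand to 4 short motifs, TGGAAA (the core bound by NFAT factors), TGANTCA (AP-1), TCANGTG (an E-box pattern) and GAGGAA (the core bound by PU.1). The E-box pattern covers MITF sites and other forms, so a match to it need not be a MITF site.
Acp5, innermost start, chr9:22130599-22130848, minus strand: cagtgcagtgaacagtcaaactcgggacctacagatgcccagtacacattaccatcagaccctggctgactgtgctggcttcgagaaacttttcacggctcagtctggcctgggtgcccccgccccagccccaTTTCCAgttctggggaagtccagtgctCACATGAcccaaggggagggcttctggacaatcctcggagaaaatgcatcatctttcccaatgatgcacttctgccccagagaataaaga
Acp5, outermost start, chr9:22135747-22135996, minus strand: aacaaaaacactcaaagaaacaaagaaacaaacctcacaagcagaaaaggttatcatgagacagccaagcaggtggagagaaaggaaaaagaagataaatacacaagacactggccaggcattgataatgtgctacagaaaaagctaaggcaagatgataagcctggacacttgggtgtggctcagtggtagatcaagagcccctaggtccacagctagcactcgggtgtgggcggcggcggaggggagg
Ctsk, chr3:95498960-95499209, plus strand: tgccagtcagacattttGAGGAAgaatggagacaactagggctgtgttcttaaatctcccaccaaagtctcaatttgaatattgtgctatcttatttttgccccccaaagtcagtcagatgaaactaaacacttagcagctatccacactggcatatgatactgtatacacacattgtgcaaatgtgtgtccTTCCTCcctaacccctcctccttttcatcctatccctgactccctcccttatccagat
Tnfrsf11a, chr1:105780473-105780722, plus strand: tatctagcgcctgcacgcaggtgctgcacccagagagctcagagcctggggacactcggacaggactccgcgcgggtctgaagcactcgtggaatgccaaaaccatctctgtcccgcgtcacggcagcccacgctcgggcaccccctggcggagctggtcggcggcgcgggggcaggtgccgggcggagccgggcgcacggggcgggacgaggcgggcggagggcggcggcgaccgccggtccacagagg
Of 3 Acp5 windows, the innermost held an NFAT core at -117 and an E-box at -90, counted in bases from the transcription start, while the outermost and the middle one (chr9:22131866-22132115, not shown) held 0 matches. Ctsk had 2 PU.1 cores, at -233 and -58. Tnfrsf11a held 0 matches in its only window, which is not at the gene's outermost annotated start. The Oscar window, not shown, had 2 NFAT cores, an E-box and a PU.1 core. Of the Calcr windows, not shown, the outermost held an E-box at -115 and the other held 0 matches. Among 32851 windows of that length in the table, 18.6% held the NFAT core, 6.75% the AP-1 motif, 12.2% the E-box and 23.3% the PU.1 core, so a match is common and is given only as a description. The innermost Acp5 window was picked for display after its matches were seen.

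In-sphere macrophages had lower signal for Atp6v0d2, Itgb3, Mmp9 and Nfatc1 at both times, and Atp6v0d2 and Itgb3 differed most. Acp5 and Ctsk were lower by smaller amounts and passed the test only at 48 h, a difference between times that did not itself pass. Of 9 tested members 4 fell and 1 rose in spheres at 24 h, where 13.6% of all tested genes fell and 15.8% rose. At 48 h 6 fell and 0 rose, where 22.3% of all tested genes fell and 15.2% rose. The median log2 difference of the tested members was -0.72 at 24 h and -0.94 at 48 h, against -0.007 and -0.101 over all tested genes. As the members were chosen with earlier results of these data known, the comparisons with all tested genes are descriptive. Arrays of the groups did not overlap for 5 lower members and 1 higher member at 24 h (21.5% and 22% of all tested genes) and for 6 lower and 0 higher members at 48 h (31% and 20.7% of all tested genes). Without in-sphere replicate 3 at 48 h, 5 fell and 1 rose at 24 h and 4 fell at 48 h. Calcr did not reach the filter level on any of the 12 arrays and was not tested. These are bulk samples, so fewer expressing cells and less RNA per cell cannot be told apart.

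**Figure D1:**
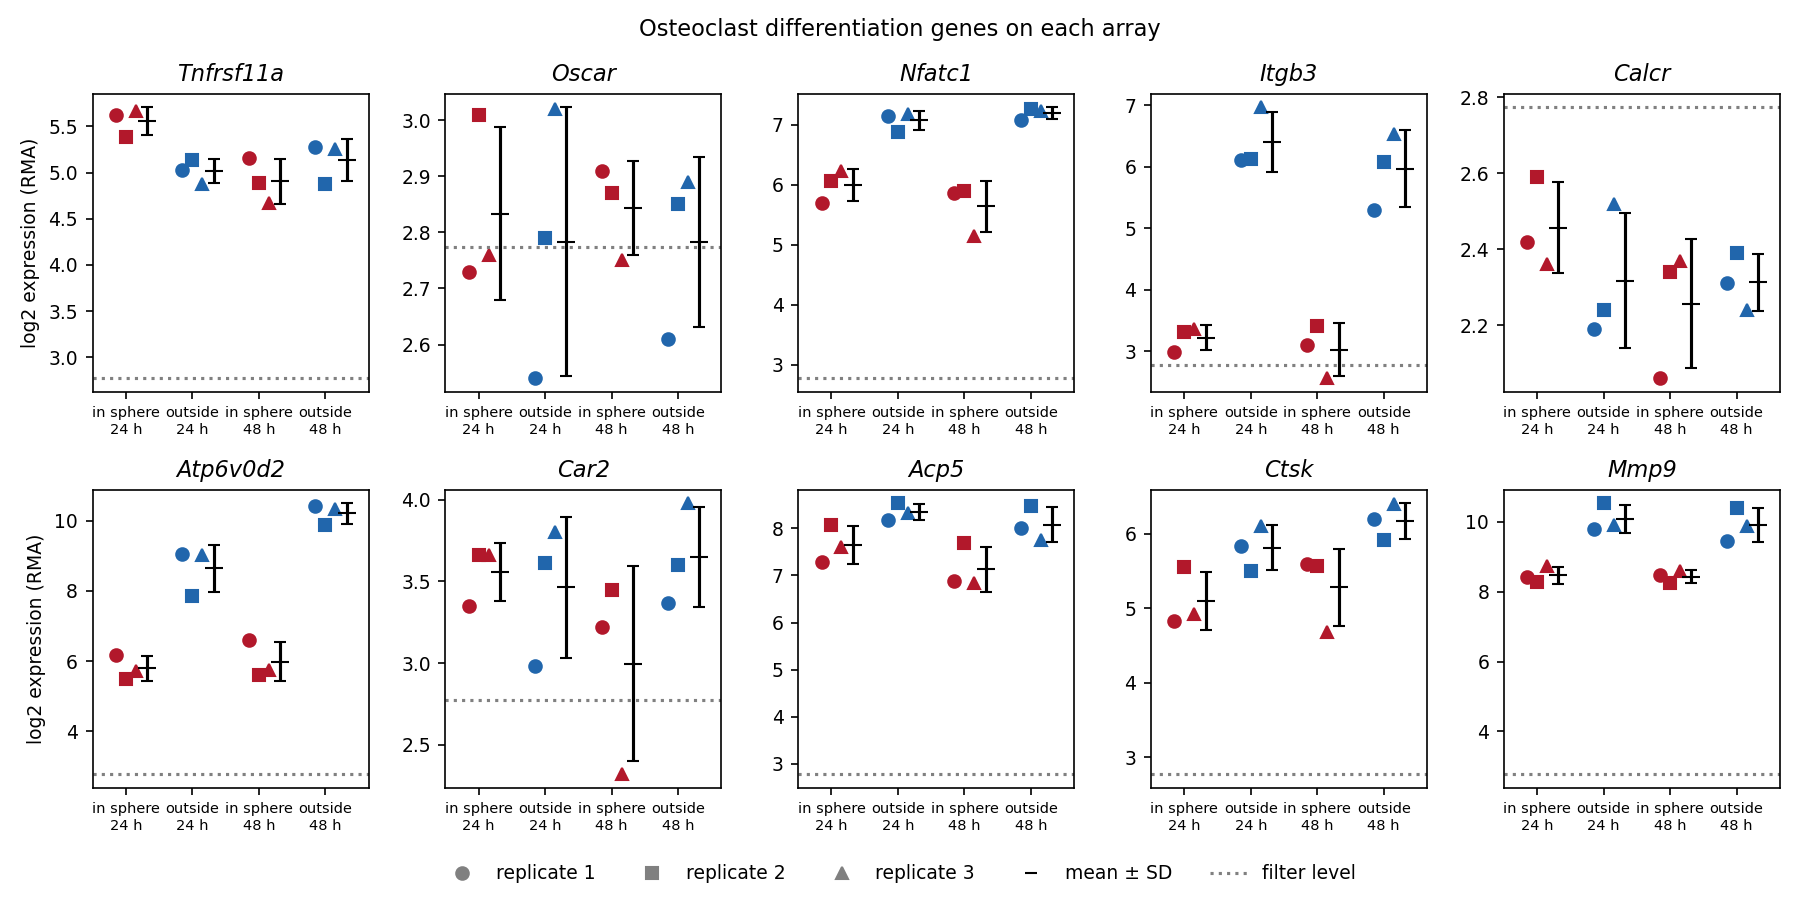
Log2 expression (RMA) of the 10 osteoclast differentiation genes on each of the 12 arrays, in macrophages in spheres (red) and outside (blue) at 24 h and 48 h, with each group's mean ± SD (n = 3) beside its points and the filter level of 2.77 dotted; vertical scales differ between panels. Itgb3, Nfatc1, Mmp9 and Atp6v0d2 separate the in-sphere from the outside arrays at both times, while Calcr lies below the filter level throughout.

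**Figure D2:**
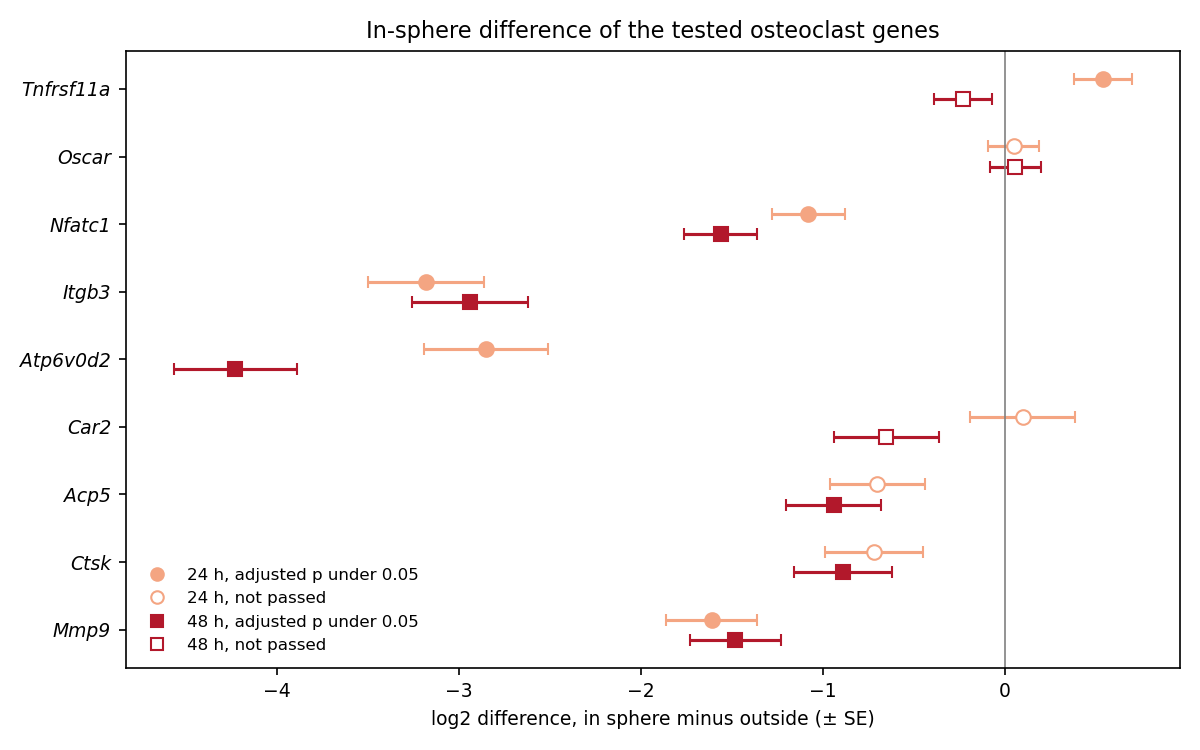
Log2 difference between in-sphere and outside macrophages (horizontal axis, ± SE from limma) for the 9 tested genes at 24 h (circles) and 48 h (squares), filled where the adjusted p was under 0.05. Atp6v0d2 has the largest fitted difference at 48 h, -4.23, and Tnfrsf11a the only called positive difference, 0.54 at 24 h.

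Tnfrsf11a encodes RANK, the receptor through which RANKL starts osteoclast formation. At 24 h its log2 signal was 5.62, 5.39 and 5.67 in spheres, against 5.03, 5.14 and 4.88 outside. All 3 in-sphere arrays lay above all outside arrays, and Tnfrsf11a was higher by 0.54 ± 0.16 (limma adjusted p = 0.0201). At 48 h the values were 5.16, 4.89 and 4.67 in spheres and 5.28, 4.88 and 5.25 outside, which overlap, and the difference was -0.23 ± 0.16 (limma adjusted p = 0.280). That difference moved by -0.77 ± 0.22 between the times, which did not pass (adjusted p = 0.198, unadjusted p = 0.00444). Among the 4 group means the in-sphere 24 h mean was highest, apart from the next by 0.43 without overlap, and the other 3 groups overlapped. The 24 h call was fragile. It was lost without in-sphere replicate 1 (adjusted p = 0.0611) or 3 (adjusted p = 0.0624) or outside replicate 3 (adjusted p = 0.0759), and with the mean of the gene's probe sets (adjusted p = 0.0911). The gene's other probe set gave a difference of 0.20 at 24 h with an adjusted p of 0.579, the range over all alternatives being 0.0110 to 0.579.

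Oscar encodes an activating co-receptor of osteoclast precursors that pairs with the ITAM adaptor FcRγ. Its signal stayed around the filter level, from 2.54 to 3.02 over the 12 arrays, with 7 of them above it. Group means were 2.83 and 2.78 in spheres and outside at 24 h, and 2.84 and 2.79 in spheres and outside at 48 h. At this signal a difference was not detectable (0.05 ± 0.14 at 24 h, limma adjusted p = 0.837, and 0.06 ± 0.14 at 48 h, adjusted p = 0.793). The other Oscar probe set exceeded the filter level on 3 arrays.

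Nfatc1, the master transcription factor of the lineage, read 5.70, 6.06 and 6.23 in spheres against 7.15, 6.89 and 7.19 outside at 24 h. At 48 h it read 5.87, 5.90 and 5.15 in spheres against 7.08, 7.27 and 7.24 outside. The outside arrays were above every in-sphere array at either time. Nfatc1 fell in spheres, with a difference of -1.08 ± 0.20 at 24 h (limma adjusted p = 0.00160), a signal 2.12-fold lower, and of -1.56 ± 0.20 at 48 h (limma adjusted p = 8.84e-05), 2.94-fold lower. Without in-sphere replicate 3 at 48 h, the lowest array, the 48 h call held. The size depends on the probe set. Nfatc1 has 5, and the 4 not used gave differences between -0.10 and -0.41 at 24 h and between -0.24 and -0.69 at 48 h, all negative and all dimmer than the set used. With the mean of all 5 the 24 h difference was -0.37 and not called (adjusted p = 0.127, range over alternatives 5.49e-05 to 0.127).

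**Figure D3:**
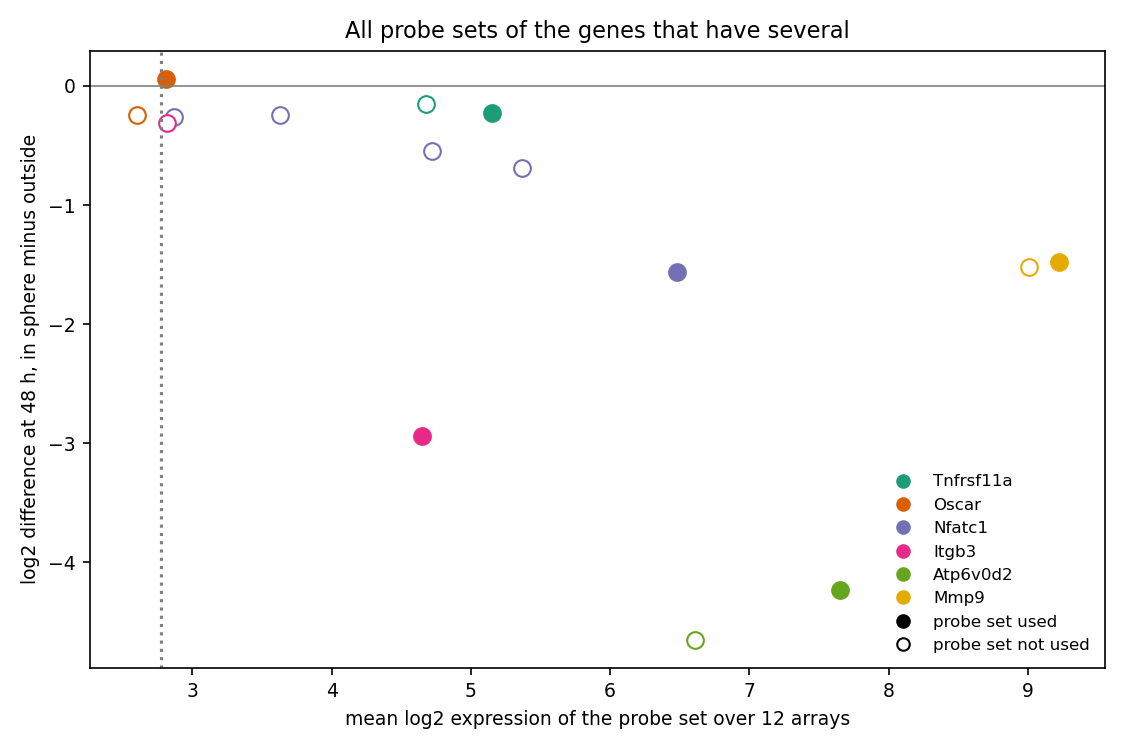
For the 6 genes with several probe sets, each probe set's mean log2 expression over 12 arrays (horizontal axis) against its log2 difference between in-sphere and outside macrophages at 48 h (vertical axis); filled points are the probe sets used and the dotted line is the filter level of 2.77. The paired sets of Atp6v0d2 (-4.23 and -4.65) and of Mmp9 (-1.48 and -1.52) have like differences, whereas the unused Itgb3 set sits near the filter level with a difference of -0.31 and the 4 unused Nfatc1 sets have smaller differences than the set used.

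Itgb3 encodes the β3 chain of the vitronectin receptor, the integrin with which osteoclasts grip bone. Its log2 signal at 24 h was 2.99, 3.31 and 3.36 in spheres and 6.11, 6.13 and 6.97 outside. At 48 h it was 3.10, 3.41 and 2.56 in spheres and 5.29, 6.07 and 6.53 outside. In-sphere arrays were close to the filter level, the lowest of them below it, and outside arrays were far above. Itgb3 fell, with a difference of -3.18 ± 0.32 at 24 h (limma adjusted p = 2.59e-05) and of -2.94 ± 0.32 at 48 h (limma adjusted p = 2.75e-05), signals 9.08-fold and 7.67-fold lower. Its partner chain Itgav had differences of 0.01 ± 0.13 at 24 h (adjusted p = 0.979) and -0.37 ± 0.13 at 48 h (adjusted p = 0.0469). The unused Itgb3 probe set, with a mean of 2.82, gave -0.13 and -0.31 at the 2 times. Platelets and their precursors also make Itgb3. Of 9 tested megakaryocyte and platelet markers 7 were lower (77.8%) and 2 higher (22.2%) in spheres at 24 h. At 48 h 6 were lower (66.7%) and 2 higher (22.2%). Over all tested genes 13.6% were lower and 15.8% higher at 24 h, and 22.3% and 15.2% at 48 h. Among the markers the partner chain of that lineage, Itga2b, had differences of -2.24 ± 0.31 and -1.82 ± 0.31, while the chemokine Pf4 was higher, by 0.54 ± 0.14 and 1.16 ± 0.14. Most different at 48 h were Clec1b (-3.03 ± 0.47), Vwf (-2.19 ± 0.29) and Gp1bb (-1.96 ± 0.49). Their in-sphere means at 48 h, 2.94, 3.45 and 2.89, were close to the filter level. The summed linear signal of the 9 markers ran from 7647 to 9502 in spheres and 5127 to 5972 outside at 24 h. At 48 h it ran from 8257 to 8633 in spheres and 3165 to 4341 outside. This sum was higher in spheres although most of the markers were lower, so it follows Pf4 and Ppbp and does not describe the other markers. Each of the 9 exceeded the filter level on at least 1 array of every group. Their part in the Itgb3 result was not tested.

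Calcr encodes the receptor for calcitonin, the hormone that stops resorption, and is a late marker of the mature osteoclast. Its signal was between 2.06 and 2.59, below the filter level on each of the 12 arrays.

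Atp6v0d2, a subunit of the vacuolar proton pump that is needed for precursor fusion in mice, had the largest difference of the tested members at 48 h, and Itgb3 had the largest at 24 h. At 24 h the log2 signal was 6.16, 5.48 and 5.72 in spheres, against 9.04, 7.86 and 9.01 outside. The 48 h signal was 6.61, 5.59 and 5.74 in spheres, against 10.41, 9.87 and 10.34 outside. Every outside array exceeded every in-sphere array. Atp6v0d2 fell, with a difference of -2.85 ± 0.34 at 24 h (limma adjusted p = 8.08e-05) and of -4.23 ± 0.34 at 48 h (limma adjusted p = 3.47e-06), which are signals 7.21-fold and 18.7-fold lower in spheres. The other probe set gave -3.50 and -4.65. Outside macrophages at 48 h lay above outside macrophages at 24 h without overlap, by 1.57 ± 0.34. That time difference did not pass in the fit without pairing (adjusted p = 0.0771) and passed with the replicate block (adjusted p = 0.00625, range over alternatives 0.00358 to 0.297), where all 3 pairs of replicates were higher at 48 h. In spheres the 48 h and 24 h values differed by 0.19 ± 0.34 (adjusted p = 0.875). Between the times the in-sphere difference moved by -1.38 ± 0.48, which did not pass (adjusted p = 0.281, unadjusted p = 0.0138).

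Car2 encodes the carbonic anhydrase that supplies protons to the osteoclast pump. Its signal was low, at 3.35, 3.66 and 3.66 in spheres and 2.98, 3.61 and 3.80 outside at 24 h. At 48 h it was 3.22, 3.45 and 2.32 in spheres and 3.37, 3.60 and 3.98 outside. The arrays overlapped at both times, and the lowest was the in-sphere array that stands apart. The differences were 0.10 ± 0.29 at 24 h (limma adjusted p = 0.843) and -0.65 ± 0.29 at 48 h (limma adjusted p = 0.0946), neither of which passed. At 48 h it was called without in-sphere replicate 2 (adjusted p = 0.0405), and it was -0.31 without in-sphere replicate 3 (adjusted p = 0.362), the range over alternatives being 0.0405 to 0.385. Erythroid cells also make Car2. Of 4 tested erythroid markers 2 were lower at 24 h (50.0%, against 13.6% of all tested genes) and 0 were higher at either time. At 48 h 1 was lower (25.0%), near the 22.3% of all tested genes. Hba-a1 had differences of -3.67 ± 0.47 and -1.82 ± 0.47. The summed linear signal of all 7 with a probe set, untested ones included, ran from 73 to 101 in spheres and 516 to 596 outside at 24 h. At 48 h it ran from 52 to 95 in spheres and 116 to 150 outside. Of the 7 erythroid markers with a probe set, 3 had no array over the filter level in spheres and 3 outside at 24 h, and 2 in spheres and 3 outside at 48 h. Their part in the Car2 values was not tested.

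Acp5 encodes tartrate-resistant acid phosphatase, the standard histochemical stain of osteoclasts. Its log2 signal was 7.28, 8.08 and 7.61 in spheres and 8.19, 8.54 and 8.33 outside at 24 h. At 48 h it was 6.88, 7.69 and 6.84 in spheres and 8.00, 8.48 and 7.75 outside. In-sphere arrays were below the outside arrays at each time, with replicate 2 highest in all 4 groups. At 24 h the difference was -0.70 ± 0.26 and did not pass (limma adjusted p = 0.0661). With the replicate block it was called (adjusted p = 0.00498), and so it was without in-sphere replicate 2 of 24 h (adjusted p = 0.0326) or of 48 h (adjusted p = 0.0342). It was also called with a variance trend (adjusted p = 0.0467), in a fit of the compared groups alone (adjusted p = 0.0402) and with the block without in-sphere replicate 3 of 48 h (adjusted p = 0.00423). The range over alternatives was 0.00423 to 0.282. At 48 h Acp5 fell by 0.94 ± 0.26 (limma adjusted p = 0.0142), 1.92-fold lower. That call was lost without in-sphere replicate 3 (adjusted p = 0.0555), in-sphere replicate 1 (adjusted p = 0.0525) or outside replicate 2 (adjusted p = 0.0647) and with array weights (adjusted p = 0.0741), the range over alternatives being 6.52e-04 to 0.0741.

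Ctsk encodes cathepsin K, the main collagen-degrading protease of osteoclasts. Its log2 signal was 4.83, 5.55 and 4.92 in spheres and 5.84, 5.50 and 6.11 outside at 24 h, which overlap. The 48 h values were 5.60, 5.57 and 4.69 in spheres and 6.20, 5.92 and 6.40 outside, with the array that stands apart lowest. The 24 h difference of -0.72 ± 0.27 did not pass (limma adjusted p = 0.0612). It was called without in-sphere replicate 2 (adjusted p = 0.0270) or outside replicate 2 (adjusted p = 0.0495) of 24 h or in-sphere replicate 3 of 48 h (adjusted p = 0.0215). Centring the arrays (adjusted p = 0.0416) and the block without in-sphere replicate 3 of 48 h (adjusted p = 0.0278) also gave a call, in a range over alternatives of 0.0215 to 0.198. At 48 h Ctsk fell by 0.89 ± 0.27 (limma adjusted p = 0.0196), 1.85-fold lower. Without in-sphere replicate 3 the 48 h difference was -0.59 and not called (adjusted p = 0.0751). The call was also lost without outside replicate 1 (adjusted p = 0.0528) or outside replicate 3 (adjusted p = 0.0738), in a range over alternatives of 0.00849 to 0.134.

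Mmp9 encodes gelatinase B, a protease of osteoclasts, macrophages and neutrophils. At 24 h it read 8.41, 8.27 and 8.73 in spheres against 9.79, 10.54 and 9.90 outside. At 48 h it read 8.48, 8.24 and 8.59 in spheres against 9.45, 10.41 and 9.89 outside. The groups did not overlap, and within spheres the values at the 2 times nearly coincide. Mmp9 fell, with a difference of -1.61 ± 0.25 at 24 h (limma adjusted p = 4.79e-04) and of -1.48 ± 0.25 at 48 h (limma adjusted p = 5.85e-04), signals 3.05-fold and 2.78-fold lower, and the other probe set gave -1.55 and -1.52. Granulocyte markers moved the same way as Mmp9. At both times 9 of 11 were lower (81.8%, against 13.6% of all tested genes at 24 h and 22.3% at 48 h) and 0 were higher. Their summed linear signal ran from 21213 to 28702 in spheres and from 47982 to 57903 outside at 24 h, and from 14243 to 22372 in spheres and from 39609 to 53281 outside at 48 h. None of the 11 was below the filter level on all arrays of a group, and the granule genes Ltf and Camp had 48 h differences of -3.09 ± 0.32 and -2.99 ± 0.43. Their part in the Mmp9 result was not tested.

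Between 48 h and 24 h limma called 0 of the 9 tested members in either compartment and 0 for the change of the in-sphere difference. Over all tested genes it called 0% in spheres, 0.336% outside (0.224% lower and 0.112% higher at 48 h) and 0% for the change. At an unadjusted p under 0.05 there was 1 member in spheres, Tnfrsf11a with -0.65 ± 0.16 (unadjusted p = 0.00124), 1 outside, Atp6v0d2, and 2 for the change, both named above, beside 1341, 1352 and 1534 of all tested genes.

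Members that fell together did not all follow one another within a compartment. Nfatc1 and Itgb3 correlated at r = 0.950 over the 12 arrays, at 0.933 over the 6 in-sphere arrays and at 0.326 over the 6 outside arrays. For Nfatc1 and Atp6v0d2 the values were 0.891, -0.109 and 0.676. In-sphere replicate 3 at 48 h, the array that stands apart, was lowest in spheres for both Nfatc1 (5.15) and Itgb3 (2.56). Each set of 6 holds arrays of both times, so its r also takes in any time difference, as for Atp6v0d2 outside. The arrays form separate sets by compartment, so r over all 12 largely restates that gap. Genes with the profile most like a member are therefore given with r over 12 arrays and then over the 6 in-sphere and the 6 outside arrays, in that order. For Atp6v0d2 they were the pump subunit Atp6v1a (0.990, 0.714 and 0.968), Gpnmb (0.986, 0.607 and 0.950) and the biliverdin reductase Blvra (0.985, 0.639 and 0.956). For Nfatc1 they were Maea (0.990, 0.975 and 0.895), Apc (0.987, 0.898 and 0.966) and Uhmk1 (0.984, 0.901 and 0.794). Acp5 was nearest to the chitinase-like genes Chil4 (0.961, 0.962 and 0.880) and Chil3 (0.955, 0.934 and 0.881), and to Dapk2 (0.953, 0.936 and 0.767). Itgb3 was nearest to Irx3 (0.984, 0.808 and 0.742), Ccdc125 (0.984, 0.816 and 0.875) and Wdfy3 (0.984, 0.641 and 0.882). Mmp9 was nearest to Scrg1 (0.986, 0.678 and 0.918), Rcsd1 (0.977, 0.321 and 0.993) and the adaptor Dok3 (0.971, 0.514 and 0.921). Ctsk was nearest to Gigyf2 (0.960, 0.921 and 0.982), Ift20 (0.952, 0.978 and 0.693) and Ing4 (0.950, 0.917 and 0.884). Tnfrsf11a was nearest to Pdxdc1 (0.931, 0.936 and 0.897), Rabggta (0.914, 0.989 and 0.762) and Cfap97 (0.907, 0.954 and 0.645). Car2 was nearest to Fank1 (0.905, 0.976 and 0.805), Rdh5 (0.898, 0.951 and 0.749) and Ddr1 (0.897, 0.932 and 0.826). Oscar, at its low signal, was nearest to Styk1 (0.819, 0.882 and 0.788), Cx3cl1 (0.818, 0.641 and 0.934) and Slfn3 (0.807, 0.652 and 0.864).

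List counts are set here against all tested genes, of which 13.6% fell and 15.8% rose in spheres at 24 h, and 22.3% fell and 15.2% rose at 48 h. Their medians were -0.007 at 24 h and -0.101 at 48 h. Of 31 tested signalling genes between RANK and NFATc1, 12 fell (38.7%) and 0 rose at 24 h, with a median of -0.31. At 48 h 7 fell, a share of 22.6% that is about that of all tested genes, and 2 rose (6.45%), with a median of -0.26. At 48 h the adaptor Blnk, which links ITAM receptors to calcium release, was lower (-1.49 ± 0.24, limma adjusted p = 3.94e-04), and the p38-activating kinase Map2k6 was higher by a fitted 1.03 ± 0.32 (adjusted p = 0.0243). Its outside arrays at 48 h were all below the filter level, so that difference is a bound of at least 0.88. Tnfrsf11b, the RANKL decoy receptor osteoprotegerin, had a fitted difference of -1.41 ± 0.30. It was tested only because 2 outside arrays at each time exceeded the filter level, so its call, counted above, is descriptive. No in-sphere array exceeded that level, so the difference is a bound of at least 0.66. The outside mean behind that bound includes an array below the level. Of 17 genes listed as osteoclast precursor and lineage factors 5 fell (29.4%) and 3 rose (17.6%) at 24 h. At 48 h 7 fell (41.2%) and 4 rose (23.5%). Not all of these factors act in favour of osteoclast formation, so the counts carry no direction for it. At 48 h the mitochondrial coactivator Ppargc1b (-1.46 ± 0.20) and its partner Esrra (-0.94 ± 0.16) were lower and Ets2 was higher (1.42 ± 0.16). The orphan receptor Nr4a1 was lower at 24 h (-0.69 ± 0.12, adjusted p = 0.00121) and higher at 48 h (0.35 ± 0.12, adjusted p = 0.0389), and the 48 h call was lost without in-sphere replicate 3 (adjusted p = 0.0952).

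Of 23 tested genes listed as brakes on osteoclast formation, 10 fell (43.5%) and 3 rose (13.0%) at 24 h, and 9 fell (39.1%) and 3 rose (13.0%) at 48 h, 7 and 3 without in-sphere replicate 3. The shares that rose are near those of all tested genes (15.8% at 24 h and 15.2% at 48 h), of which 13.6% and 22.3% fell. The most different at 48 h, Cebpa (-2.31 ± 0.19), goes against the list's name, since this myeloid transcription factor is known in mice to be needed for commitment to the osteoclast lineage. Without Cebpa, a count made after the values were seen, 9 of 22 fell and 3 rose at 24 h, and 8 fell and 3 rose at 48 h. The helix-loop-helix inhibitor Id1 was lower at 48 h (-1.87 ± 0.27), and the Notch effector Rbpj was higher (1.91 ± 0.15). Of 17 fusion-related genes 4 fell (23.5%) and 7 rose (41.2%) at 24 h, and 7 fell (41.2%) and 5 rose (29.4%) at 48 h. The chemokine receptor Ccr2 was higher by 4.15 ± 0.46 and its ligand Ccl2 by 2.26 ± 0.16 at 48 h. The cadherin Cdh1 had a fitted 48 h difference of 2.35 ± 0.42, but its outside mean was 2.30, under the filter level. Only 1 outside array at 48 h and 0 at 24 h exceeded that level, so Cdh1 entered the test through its in-sphere arrays and the size is uncertain. Of 14 coupling factors, by which osteoclasts act on bone-forming cells, 6 fell (42.9%) and 4 rose (28.6%) at 24 h, and 6 fell (42.9%) and 3 rose (21.4%) at 48 h. Bmp2 was lower (-2.42 ± 0.32) and the cytokine Lif higher by 1.89 ± 0.21 at 48 h. Cthrc1, below the filter level on every in-sphere array and so tested only through its outside arrays, was lower by at least 1.58.

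Acid secretion and resorption genes had the largest share of lower members at 48 h among the 6 osteoclast pathway lists. Of 38 tested, 14 fell (36.8%) and 3 rose (7.89%) at 24 h, and 29 fell (76.3%) and 1 rose (2.63%) at 48 h, 24 and 1 without in-sphere replicate 3, with medians of -0.32 and -0.72. Over all tested genes 13.6% fell and 15.8% rose at 24 h, and 22.3% fell and 15.2% rose at 48 h. The medians over all tested genes were -0.007 and -0.101. Most different at 48 h were Plekhm1, a lysosome adaptor whose loss causes osteopetrosis (-2.12 ± 0.18, limma adjusted p = 5.38e-06), and the pump subunits Atp6v1b2 (-1.69 ± 0.13) and Atp6v0a1 (-1.61 ± 0.24). The list holds 12 pump subunit or accessory genes besides Atp6v0d2, a subset picked by name after the values were seen. Of these 8 fell at 24 h and 12 at 48 h, with 0 higher, beside 13.6% and 22.3% of all tested genes lower. Their 48 h differences ran from -1.69 to -0.46. Atp6v0d1, the ubiquitous counterpart of Atp6v0d2, was lower, with differences of -0.41 ± 0.13 at 24 h (adjusted p = 0.0345) and -0.92 ± 0.13 at 48 h (adjusted p = 1.86e-04). It averaged 9.32 ± 0.127 in spheres and 10.24 ± 0.0738 outside at 48 h (SD, n = 3 each). Tcirg1, the pump's osteoclast-enriched large subunit, had a difference of -0.90 ± 0.15 at 48 h (adjusted p = 6.02e-04). The difference between Atp6v0d2 and the other subunits was not tested.

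**Figure D4:**
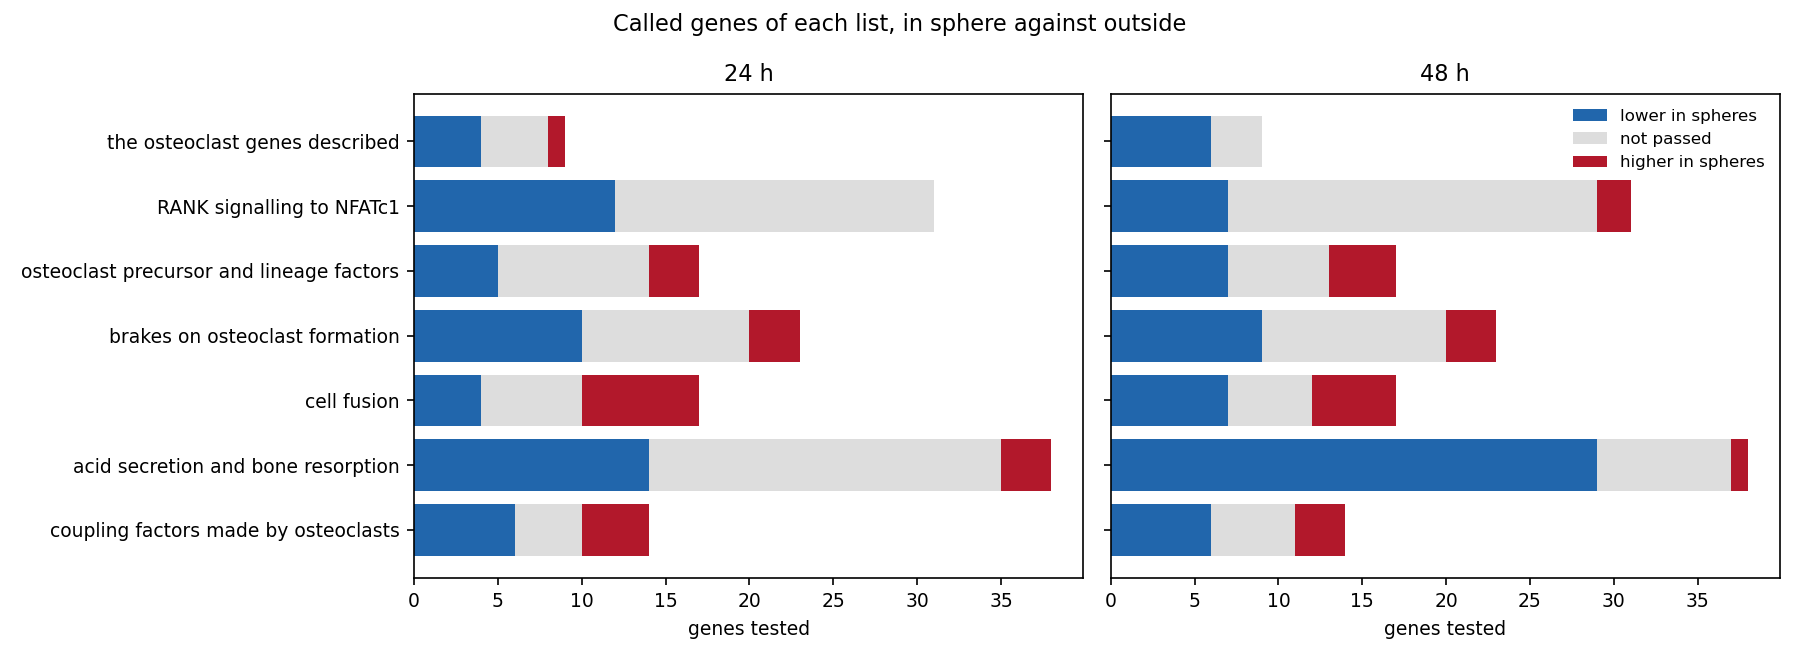
Number of tested genes in each list (bar length) that were lower in spheres (blue), not passed (grey) or higher in spheres (red) at limma adjusted p under 0.05, at 24 h (left) and 48 h (right). Acid secretion and bone resorption genes had 29 of 38 lower at 48 h, against 14 of 38 at 24 h. Over all tested genes 22.3% were lower at 48 h and 13.6% at 24 h.

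**Figure D5:**
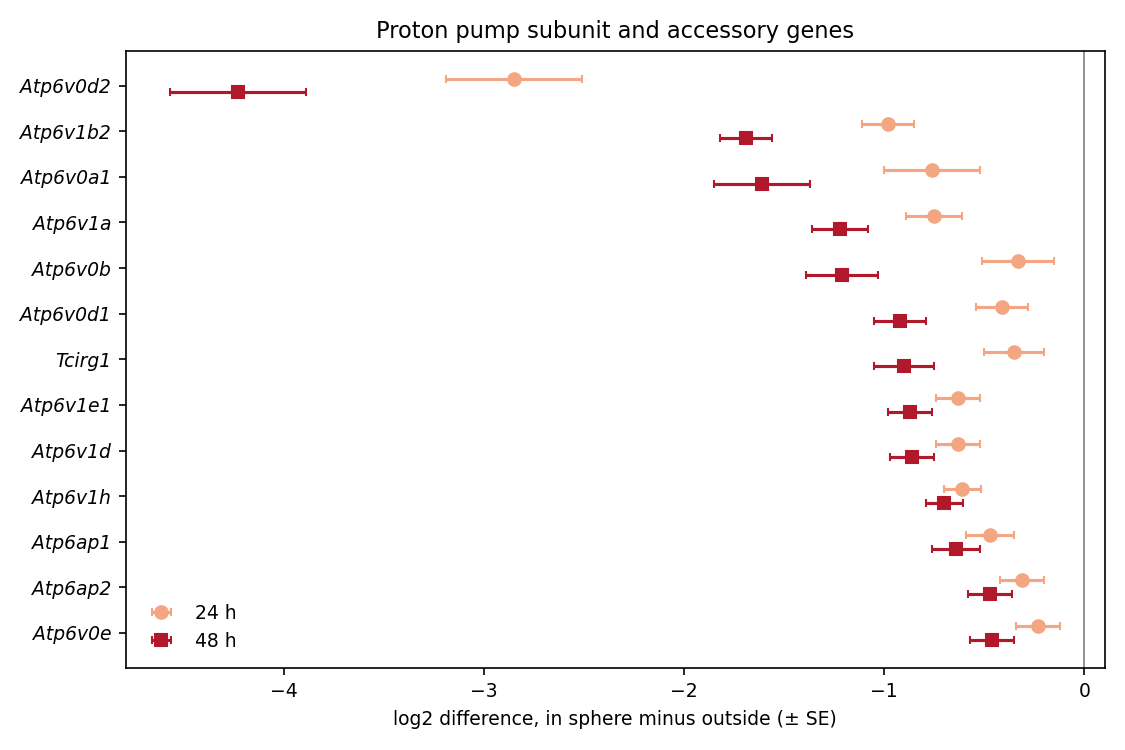
Log2 difference between in-sphere and outside macrophages (horizontal axis, ± SE) for Atp6v0d2 and 12 other proton pump subunit or accessory genes at 24 h (circles) and 48 h (squares). Atp6v0d2 lies at -4.23 at 48 h, while the 12 others lie between -1.69 and -0.46.

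Some markers of other cells differed between the compartments beside these results. Over all tested genes 13.6% fell and 15.8% rose at 24 h, and 22.3% fell and 15.2% rose at 48 h. Of 7 tested osteoblast and bone matrix markers 3 fell (42.9%) and 1 rose (14.3%) at 24 h, and 5 fell (71.4%) and 0 rose at 48 h. They were led by Ibsp, lower by at least 3.69 and 5.89, and by Dmp1 (-2.70 ± 0.64 and -5.81 ± 0.64). Ibsp was below the filter level on every in-sphere array, so only its outside arrays put it in the test. The summed linear signal of all 8 osteoblast markers with a probe set was 81 to 109 in spheres and 165 to 408 outside at 24 h. At 48 h it was 89 to 93 in spheres and 781 to 1402 outside. Of 11 fibroblast markers 7 rose (63.6%) and 1 fell (9.09%) at both times, with Col3a1 higher by 2.64 ± 0.31 and 3.28 ± 0.31. Of 12 tested neural markers 2 rose at 24 h, a share of 16.7% that is near the 15.8% of all tested genes, 3 rose at 48 h (25.0%) and 0 fell. Gap43 was higher by a fitted 3.99 ± 0.30 and 4.41 ± 0.30. Its outside mean at 48 h, 2.51, was under the filter level, with 1 array above it, so the 48 h size is uncertain. Elavl4, called at 48 h, was tested only because its 3 in-sphere arrays at 48 h exceeded the filter level. Of the 17 with a probe set, 7 had no array over the filter level in spheres and 5 outside at 24 h, and 7 in spheres and 7 outside at 48 h. Of 12 macrophage identity genes 3 fell (25.0%) and 1 rose (8.33%) at 24 h, and 4 fell (33.3%) and 2 rose (16.7%) at 48 h. Among them Mertk (-0.91 ± 0.15 and -1.25 ± 0.15) and Cebpa (-1.47 ± 0.19 and -2.31 ± 0.19) were lower at both times. Cd14 was higher at both (0.54 ± 0.13 and 1.09 ± 0.13). Adgre1 at 24 h and Cd68 at 48 h are also among those that fell. The 3′ minus 5′ signal of the β-actin control, which rises with RNA degradation, averaged 0.48 in spheres and 0.29 outside at 24 h, and 0.41 in spheres and 0.39 outside at 48 h. The part of these differences in the results above was not tested.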

How the data were processed

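Per the submitters' processing notes, the authors used Expression Console 1.1 and RMA, and the deposited values are log2 signals of probe sets. RMA's joint quantile normalisation removes differences in total RNA between arrays. Their range fits a base of 2, which no note states. The table held 45141 probe sets, of which the platform annotation gave 28898 a single symbol. For arrays, their number limits the precision. Closest arrays differed by a median of 0.139, so none was a copy.

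All 12 arrays entered 1 linear model with a mean per group (limma 3.58.1 under R 4.3.3, moderated by eBayes, with 8 residual and 4.09 prior degrees of freedom), which was tested on simulated data. Comparisons were in-sphere minus outside at each time, 48 h minus 24 h inside and outside, and the movement of the in-sphere difference with time. Named genes are the 10 members, per list the 3 called genes with the largest 48 h difference plus any that changed direction between times, and per tested member the 3 genes with the highest Pearson correlation. For the lists of cell type markers, only some of those 3 genes are named. Genes given outside this rule were chosen after their values were seen. Members and lists were chosen with earlier results of these data known.

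Replicate numbers are taken as pairing the arrays, since the design text calls each replicate an independent experiment and puts both compartments in the same cultures. Correlations of same-numbered deviations from group means were 0.0215, 0.120 and 0.0813 between compartments at 24 h, 0.117, 0.0417 and 0.112 at 48 h, and 0.471, 0.473 and 0.419 between outside arrays of the 2 times. Alternatives were a replicate block, other filters, other probe set choices, centring, array weights, a variance trend, fits on the compared groups alone and leaving out each array.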

Additional observations from a re-analysis of the deposited data

How the results depend on the processing

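Alternatives were planned apart from the replicate block without in-sphere replicate 3 at 48 h, which was chosen after seeing the data. The calls of Atp6v0d2, Itgb3 and Mmp9 at both times and of Nfatc1 at 48 h kept their direction and passed under all 22 alternatives. Members called at 24 h numbered 5, and 3 with the mean of all probe sets. Leaving out 1 array each gave 4 to 7 at 24 h and, against 6, 4 to 7 at 48 h. Members called outside between 48 h and 24 h numbered 0, and 1, Atp6v0d2, with the replicate block, with array weights, with a variance trend and with the block without in-sphere replicate 3. With the replicate block 6 members were called at 24 h (adding Acp5) and 6 at 48 h, and no other call of a member changed.

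Over all genes, calls of the comparison in spheres between 48 h and 24 h went to 15 with the block, 115 with array weights and at most 13 otherwise, against 0. Calls outside went to 158 with the block, 286 with weights, 88 with a trend, 234 with the block without in-sphere replicate 3 and 1 in a fit of the compared groups alone, against 42, and ran from 0 to 68 with 1 array left out. Calls of the change went to 65 with the block and 130 with weights, against 0.  Signal near the filter level limits what can be said of Oscar, Calcr and Car2.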
